A study of Mus musculus with 4 samples.

Results

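Beta-catenin was stabilized by recombination in endothelial cells of mice that lack Norrin, and the RNA of their whole retinas was compared with that of Norrin knockout retinas without the stabilized protein. The comparison sets the stabilized knockout library against the knockout library, which are 2 of the 4 libraries of the series. It covers 12905 of the 23278 genes in the deposited table. These genes averaged at least 1 FPKM across the 4 libraries, with a usable status in each, and short RNA genes (symbols beginning with Mir, Snor, Scarna or Rnu) were left out. FPKM correct a fragment count for the length of the transcript and the size of the library, so levels can be set side by side between genes.

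The stabilized knockout mice were NdpKO;Ctnnb1flex3/+;Pdgfb-CreER and the knockout mice were NdpKO. The remaining libraries came from WT mice and from Ctnnb1flex3/+;Pdgfb-CreER mice with Ndp intact, called the stabilized library here. All were on a mixed background with at least C57BL6 and 129, were injected with 20 ug of 4HT (active tamoxifen) at postnatal day 3, and were taken at postnatal day 10. Ctnnb1flex3 is an allele of the beta-catenin gene from which Cre removes an exon, leaving a protein that escapes degradation. Pdgfb-CreER is a Cre recombinase that 4HT activates, expressed under Pdgfb regulatory sequence in endothelial cells. Per the labels, the WT and knockout mice carried neither, so the transgene and the stabilized allele cannot be told apart here. Each library pooled RNA from 3 batches of 4 to 8 retinas, and no spread between mice can be read from it. Whole retinas were measured, so the cells behind a value were not tested, also where other expressing cells are named below.

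Norrin, encoded by Ndp, is secreted in the retina and binds the receptor Frizzled-4 on endothelial cells, together with the co-receptor Lrp5 and the tetraspanin Tspan12. The signal keeps beta-catenin from degradation, and beta-catenin then enters the nucleus and acts with transcription factors of the TCF/LEF family. In the retina and brain this pathway is known for directing vessel growth and for the barrier state of endothelium, in which tight junctions are sealed, selective transporters are made and the diaphragm protein Plvap is low. Stabilized beta-catenin acts below the receptor, so it can act without the ligand.

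Ndp was at 0.869 FPKM in the stabilized knockout and at 0.873 FPKM in the knockout, against 2.98 FPKM in WT and 2.35 FPKM in the stabilized library. Ctnnb1 was at 161 and 138 FPKM in the stabilized knockout and the knockout with overlapping intervals. A gene's value gives no account of exons, so it does not show the recombination. The sum of all deposited FPKM was 427109 in the stabilized knockout and 417911 in the knockout. Read totals were not given in the sources used here. The squared width of the deposited intervals relative to the value was alike in both, with a median ratio of 1.01 over 3359 low genes. Both were male by their expression, with the Y-linked Ddx3y at 20.1 and 18.7 FPKM, so the comparison lies within one sex. WT and the stabilized library were female, with Xist, the RNA of the inactive X chromosome, at 135 and 130 FPKM. The defining rod genes Gnat1 and Sag and the Muller glia gene Glul were present in all 4 libraries, as was the endothelial gene Pecam1. Lens genes summed to between 6.51 and 8.61 FPKM in every library.

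A gene was called where the libraries were at least 1.5-fold apart on the scale of FPKM plus 0.5 and their deposited intervals did not overlap. With 1 library against 1 this is a description and no test was run. In the stabilized knockout 115 genes were called higher than in the knockout (0.891% of those entering) and 33 were called lower (0.256%). At least 2-fold apart were 51 of the higher and 7 of the lower genes. The rest of the transcriptome lay close together: the central 95% of log2 ratios ran from -0.34 to 0.43, with a median of 0.04. Vascular lists held 42 of the genes called higher and 2 of those called lower, and lists of retinal cell types held 2 and 3. The vascular lists had from 8 to 25 members entering each, and the retinal cell type lists from 7 to 21. At shares of 0.891% and 0.256%, a list of such a size without any call is near what all genes give. All lists were chosen with earlier results of these data known, so these counts are a description and no evidence of direction. The genes called higher were mostly of low expression, with 79 of 115 under a mean of 5 FPKM, against 26.1% of all genes entering. Because the minimum is a mean over all 4 libraries, a low gene can enter through the libraries where it is high. Counts of ratios above 0 among entering genes are therefore partly set by the filter. With a minimum mean of 5 FPKM the counts were 36 higher and 18 lower, and with no minimum 195 higher. Just inside the threshold lay Itga7 and Pax7 (both 0.59) and Lnx2 (-0.60), and just outside it Pdgfrb (0.58) and Slc24a1 (-0.57).

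Barrier genes of the endothelium were higher in the stabilized knockout, and Cldn5 had the highest ratio of any called gene with a deposited locus of its own. Cldn5 encodes claudin-5, the main claudin of tight junctions in brain and retinal endothelium. Its level was 0.675 FPKM in the knockout (deposited interval 0.378 to 0.971), 6.91 FPKM in WT (5.18 to 8.63), 19.4 FPKM in the stabilized library (15.8 to 23.1) and, for the stabilized knockout, 16.7 FPKM (13.5 to 20.0). The knockout was lowest, and both libraries with stabilized beta-catenin lay above WT with their intervals apart from it. On the log2 scale the stabilized knockout exceeded the knockout by 3.87 ± 0.41, where ± is the distance to the deposited upper bounds, combined over both libraries. Slco1c1, a transporter of thyroid hormone, was at 0.0206 FPKM in the knockout (0 to 0.0602), 0.396 in WT, 3.63 in the stabilized library and, for the stabilized knockout, 2.32 FPKM (1.72 to 2.91), a log2 ratio of 2.44 ± 0.30. Its knockout value was near 0, so the ratio rests on the pseudocount and was 4.32 with a pseudocount of 0.1 and 1.70 with one of 1. Mfsd2a, a lysophospholipid transporter that restrains vesicle traffic across endothelium, was at 0.545 FPKM in the knockout (0.329 to 0.761), 1.20 in WT, 3.80 in the stabilized library and, for the stabilized knockout, 4.86 FPKM (3.72 to 6.01). Its log2 ratio was 2.36 ± 0.39, and the stabilized knockout had the highest value of the 4, with an interval that overlapped that of the stabilized library.

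The sequences before the starts of Cldn5, Slco1c1 and Mfsd2a are shown because these genes had the widest separation among the barrier genes. They are the 250 bases before the RefSeq start (GRCm38.p6), read along the gene's strand. Cldn5 lies at chr16:18776597-18776846 on the plus strand, Slco1c1 at chr6:141524104-141524353 on the plus strand and Mfsd2a at chr4:122961189-122961438 on the minus strand. Capitals mark a TCF/LEF core, searched as CTTTGAT or CTTTGTT and, for the other strand, ATCAAAG or AACAAAG.
Cldn5: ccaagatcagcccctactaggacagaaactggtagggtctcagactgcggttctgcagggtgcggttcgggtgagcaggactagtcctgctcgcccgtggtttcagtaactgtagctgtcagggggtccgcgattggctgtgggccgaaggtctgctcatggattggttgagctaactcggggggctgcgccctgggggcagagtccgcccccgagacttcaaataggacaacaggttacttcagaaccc
Slco1c1: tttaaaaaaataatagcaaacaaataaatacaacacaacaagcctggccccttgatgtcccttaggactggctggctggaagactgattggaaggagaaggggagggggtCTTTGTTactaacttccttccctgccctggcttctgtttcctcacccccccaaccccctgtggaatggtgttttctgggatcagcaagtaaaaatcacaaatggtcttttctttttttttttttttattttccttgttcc
Mfsd2a: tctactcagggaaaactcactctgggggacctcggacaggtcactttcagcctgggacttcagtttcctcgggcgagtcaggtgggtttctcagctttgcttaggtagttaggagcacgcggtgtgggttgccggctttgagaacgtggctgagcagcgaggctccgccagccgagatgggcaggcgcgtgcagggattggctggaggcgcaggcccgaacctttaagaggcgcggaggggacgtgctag
Slco1c1 has a core that begins at position -140 from the start. A second one begins 6 bases after the first transcribed base and is not shown. Neither Cldn5 nor Mfsd2a has these letters in the window. From 250 bases before to 50 after the start, 9.33% of 32851 RefSeq promoters hold a core, and 6.22% of the 11787 promoters of genes entering. Of the 97 promoters matched to 77 of the genes called higher 5 hold one (5.15%), those of Slco1c1, Slc7a1, Islr2, Prkcd and Zfp534. Of the 31 promoters matched to 22 of the genes called lower 1 holds one (3.23%), that of Bub1b. A match describes letters and not binding, and more distant sequence was not searched.

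Of the 21 barrier transporters listed, 16 entered, 8 were called higher and none lower, and their median log2 ratio was 0.51. The other called transporters carry amino acids, metals and organic anions. Slc38a5, a transporter of glutamine and related amino acids, was at 0.172 FPKM in the knockout, 0.611 in WT, 2.60 in the stabilized library and 1.33 FPKM in the stabilized knockout, a log2 ratio of 1.45 ± 0.38. Its stabilized knockout level lay between WT and the stabilized library, with intervals apart from both. Slc39a8, which carries zinc and manganese, was at 0.174 FPKM in the knockout and between 0.977 and 1.56 FPKM in the other libraries (1.61 ± 0.32). That gene shares its deposited locus with another gene, so its value is uncertain. Slc7a1, the transporter of arginine and lysine, measured 2.63 and 6.03 FPKM in the knockout and the stabilized knockout (1.06), Slco2b1 at 0.454 and 1.44 FPKM (1.02), and the iron exporter Slc40a1 at 1.13 and 2.58 FPKM (0.92). Slc7a5, which carries large neutral amino acids, was at 20.7 and 31.4 FPKM, and its log2 ratio of 0.59 dropped under 1.5-fold after re-centring (0.56), on the TPM scale (0.57) and with a pseudocount of 1 (0.58). Not called were 8 transporters, from Slc16a1 (-0.34) to Abcg2 (0.43). They include the glucose transporter Slc2a1, at 92.6 and 94.5 FPKM, and the transferrin receptor Tfrc, at 30.3 and 32.7 FPKM, which neural cells and glia also express. With a minimum mean of 5 FPKM the list median was 0.08 on the fewer members left.

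**Figure D1:**
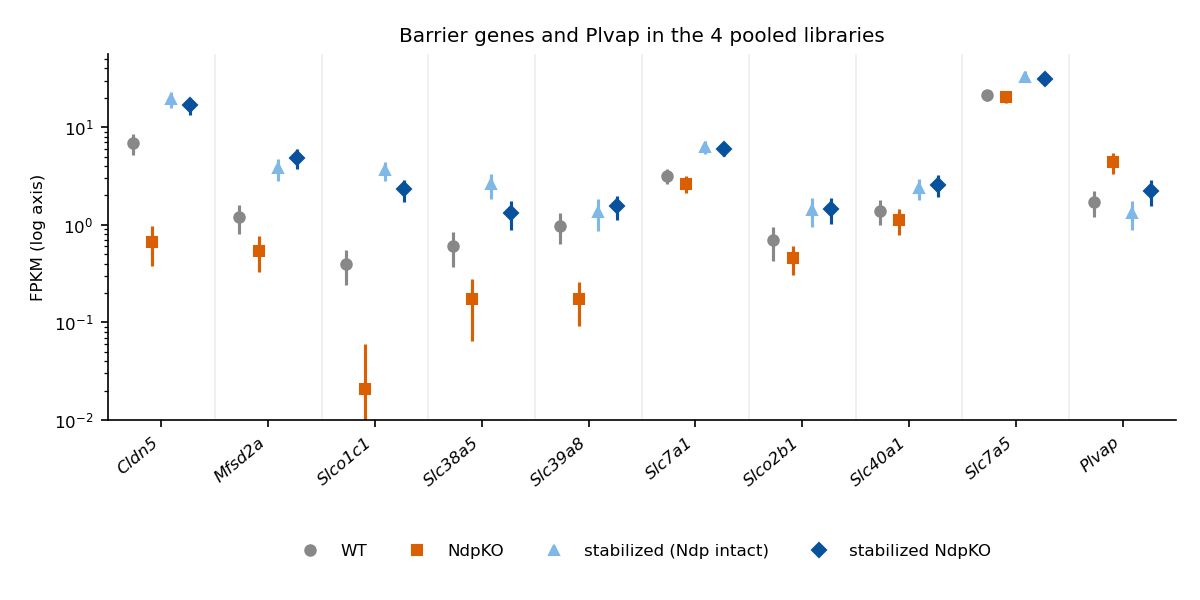
FPKM on a log axis of 9 barrier genes called higher in the stabilized knockout, and of Plvap, with 1 point per pooled library and vertical lines for the deposited intervals (a lower bound of 0 is drawn to the axis). The knockout is the lowest library for all of the 9, from Slco1c1 at 0.0206 to Slc7a5 at 20.7 FPKM, and the highest for Plvap at 4.40 FPKM. For Slc7a1, Slco2b1, Slc40a1 and Slc7a5 its interval overlaps with that of WT.

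Among tight junction genes, 2 of the 10 entering were called higher, Cldn5 and Cgnl1. Cgnl1, the scaffold paracingulin, measured 3.57 and 5.65 FPKM in the knockout and the stabilized knockout, a log2 ratio of 0.60 that dropped under 1.5-fold after re-centring (0.56) and with a pseudocount of 1 (0.54). The list median was 0.16. Tjp1, the scaffold ZO-1, was at 19.3 and 22.1 FPKM with overlapping intervals. The other 8 members, which epithelia and glia make too, lay between Cldn12 (-0.23) and Lsr (0.33).

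Plvap (chromosome 8, 71497765 to 71511752, GENCODE M21 on mm10) forms the diaphragms of fenestrated endothelium and is low where a barrier is closed. Its level was 4.40 FPKM in the knockout (3.30 to 5.50), 1.72 in WT (1.20 to 2.24), 1.33 in the stabilized library (0.894 to 1.77) and, for the stabilized knockout, 2.22 FPKM (1.58 to 2.87). The knockout stood above the other 3 libraries, and the intervals of the stabilized knockout and WT overlapped. The log2 ratio of the stabilized knockout to the knockout was -0.85 ± 0.42. In the list of fenestration and caveolar genes, with 8 members entering and a median of -0.20, Plvap was the 1 member called lower and Ptrf, a coat protein of caveolae, the 1 called higher (1.13 and 2.35 FPKM, 0.81). Cav1, the structural protein of caveolae, had a log2 ratio of -0.48 and was not called.

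Genes common to all endothelium were higher beside the barrier genes. Of 41 pan-endothelial genes 25 entered, 12 were called higher and none lower, 24 had a ratio above 0, and the median was 0.70. Of the 16 below the minimum mean, Calcrl and Myct1 were lower in the stabilized knockout and the others higher. Pecam1, an adhesion molecule of all endothelium, was at 2.02 FPKM in the knockout, 1.93 in WT, 4.12 in the stabilized library and 4.08 FPKM in the stabilized knockout (0.86 ± 0.44). Its levels fell into 2 pairs by the state of beta-catenin, whatever the state of Ndp. Cdh5, the cadherin of endothelial junctions, was at 1.36 FPKM in the knockout, 0.754 in WT, 2.79 in the stabilized library and 2.98 FPKM in the stabilized knockout (0.90 ± 0.35). Here too the libraries with stabilized beta-catenin were the highest, and WT was the lowest. Because whole retinas were measured, more endothelial cells and more RNA of these genes per cell cannot be told apart.

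The widest pan-endothelial ratios were those of cell surface receptors. Eltd1, an adhesion receptor of endothelium, was at 0.532 in the knockout and 3.72 FPKM in the stabilized knockout (2.03 ± 0.33). Cd93, a lectin-like receptor, was at 1.29 and 5.44 FPKM (1.73 ± 0.30), and Tie1, an orphan receptor of the angiopoietin pathway, at 0.643 and 2.85 FPKM (1.55 ± 0.34). None of these had overlapping intervals, and the stabilized knockout was also above WT, where they were at 1.36, 1.49 and 0.864 FPKM. Sox18 (1.23), Cd34 (1.15), Ly6c1 (1.13), Eng (1.12), Ets1 (1.11), Icam2 (0.91) and Esam (0.84) were called as well. Sox18 and Ets1 are transcription factors and the others surface proteins, among them Eng, a co-receptor for the TGF-beta family. Cd34 and Eng share their deposited locus with another gene. Not every endothelial gene followed: Emcn was at -0.30, Podxl at 0.09, S1pr1 at 0.10 and Nos3 at 0.19. Kdr, the main VEGF receptor, was at 39.9 and 45.7 FPKM (0.20 ± 0.24), and retinal neurons express it as well. With a minimum mean of 5 FPKM the list median was 0.28.

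Basement membrane genes were the vascular list with the highest median. Of 26 listed genes 17 entered, all with a ratio above 0, 10 were called higher and none lower, and the median was 0.79. Of the 9 below the minimum mean, Col4a3, Col4a4 and Lamb3 were lower in the stabilized knockout and the others higher. Col4a1 (chromosome 8, 11198423 to 11312826), a collagen chain that all vessel basement membranes contain, was at 7.77 FPKM in the knockout (6.69 to 8.84), 4.81 in WT (4.06 to 5.55), 16.7 in the stabilized library (14.6 to 18.9) and, for the stabilized knockout, 18.0 FPKM (15.7 to 20.3). WT was the lowest, the knockout came next, and the libraries with stabilized beta-catenin overlapped with each other. The log2 ratio of the stabilized knockout to the knockout was 1.16 ± 0.24. Its partner Col4a2, which is transcribed from the neighbouring start in the other direction, had the same order, at 5.98 in the knockout and 12.4 FPKM in the stabilized knockout (0.99 ± 0.25). Nid1, which links laminin to collagen, was at 1.13 and 3.83 FPKM (1.41 ± 0.31), and Vwa1, a matrix protein that binds perlecan, at 1.06 and 4.10 FPKM (1.56 ± 0.37). The laminin chains of vessels were called with Lama4 (1.18), Lamb1 (0.67) and Lamc1 (0.66), fibronectin (Fn1) with 0.79, perlecan (Hspg2) with 0.81 and Col18a1 with 0.87. Nid2 had a log2 ratio of 0.92 but overlapping intervals. Lama1 (0.16), Lama5 (0.11) and Agrn (0.36), which the inner limiting membrane of the retina also contains, were not called. With no minimum mean the list median was 0.41. Fibroblast markers, which include other matrix genes, summed to 15.2 FPKM in the knockout, 12.5 in WT, 16.3 in the stabilized library and 24.6 FPKM in the stabilized knockout. Only 2 of the 11 entered, Col1a2 (0.39) and Mgp (0.66), and neither was called. The collagen gene Col3a1, below the minimum mean, was at 0.267 FPKM in the knockout, 0.0958 in WT, 0.544 in the stabilized library and 1.06 FPKM in the stabilized knockout. The part of fibroblasts in the differences of matrix and mural genes was not tested.

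**Figure D2:**
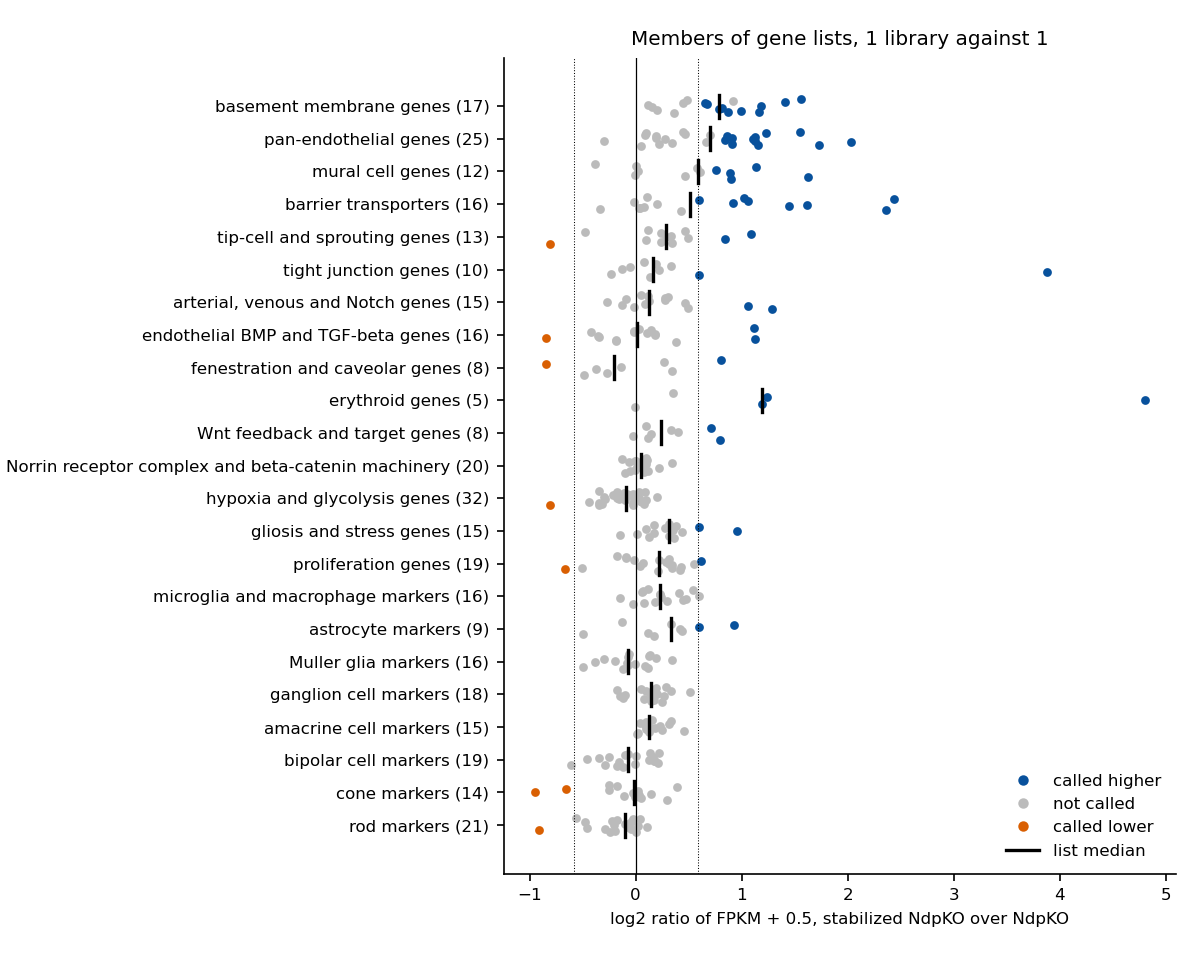
Log2 ratio of the stabilized knockout to the knockout for each member of 23 gene lists, 1 point per gene, with the number entering in brackets, black bars for list medians and dotted lines at 1.5-fold. Basement membrane, pan-endothelial, mural and barrier transporter genes extend to the right, with medians from 0.51 to 0.79, while the Norrin pathway components and the markers of retinal neurons lie around 0.

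Mural cells, the pericytes and smooth muscle cells around vessels, had 12 of 22 listed genes entering, of which 5 were called higher and none lower. Their median was 0.59. Acta2, the actin of smooth muscle, was at 0.756 FPKM in the knockout, 0.392 in WT, 1.53 in the stabilized library and 3.38 FPKM in the stabilized knockout (1.63 ± 0.42). The stabilized knockout stood above all other libraries, with its interval apart from each. Rgs5, a signalling regulator of pericytes, was at 9.63 FPKM in the knockout, 17.6 in WT, 25.0 in the stabilized library and 21.7 FPKM in the stabilized knockout (1.13 ± 0.33), so the knockout was the lowest library. Abcc9, a channel subunit of pericytes that shares its deposited locus with another gene (0.90), Mcam (0.89) and Notch3, the Notch receptor of mural cells (0.75), were also called. The receptor Pdgfrb was just short of the threshold, at 1.26 and 2.14 FPKM (0.58 ± 0.36). The smooth muscle gene Tagln (0.01) and the pericyte genes Vtn (-0.38) and Ndufa4l2 (0.02) were not called.

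Red blood cell RNA moved with the vascular genes. The 10 erythroid genes in the table summed to 109 FPKM in the knockout, 104 in WT, 194 in the stabilized library and 209 FPKM in the stabilized knockout. Of these 5 entered and 3 were called higher: Hba-a1 (51.5 and 119 FPKM, 1.19 ± 0.28), Hbb-b1 (11.4 and 27.7 FPKM, 1.24) and Hba-a2 (at 0.000730 FPKM in the knockout). Hba-a1 and Hba-a2 are near-identical copies and share reads, so their separate values are uncertain. Hbb-b1 shares its deposited locus with another gene, and its value is uncertain too. The globin gene Beta-s, which is outside the list and has a deposited locus of its own, was also called higher. It was at 35.5 in the knockout and 70.1 FPKM in the stabilized knockout (0.97 ± 0.33), and was called higher with Ndp intact as well (0.70). The list median was 1.19, and 0.23 with no minimum mean. The part of red blood cells in the vascular differences was not tested.

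Genes of vessel growth and identity gave fewer calls. Of 13 tip-cell and sprouting genes entering, 2 were called higher and 1 lower, with a median of 0.28. Cxcr4, a chemokine receptor of sprouting endothelium, measured 5.18 and 9.70 FPKM in the knockout and the stabilized knockout (0.84 ± 0.39). Adm, the vasodilator adrenomedullin, was at 3.32 FPKM in the knockout (2.35 to 4.28), 2.01 in WT (1.37 to 2.66), 1.52 in the stabilized library (0.996 to 2.05) and, for the stabilized knockout, 1.68 FPKM (1.12 to 2.25). The knockout was the highest library, although its interval overlapped with that of WT, and the log2 ratio was -0.81 ± 0.46. Among 15 arterial, venous and Notch genes, with a median of 0.12, 2 were called higher: the apelin receptor Aplnr (1.16 and 3.54 FPKM, 1.29) and the arterial gap junction gene Gja4 (0.640 and 1.87 FPKM, 1.06). The Notch ligand Dll4 was at 0.50 and not called. Of the 8 VEGF ligands and receptors none was called, and they ranged from -0.35 for Vegfa, at 116 and 90.8 FPKM, to 0.30 for Nrp2.

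Endothelial BMP and TGF-beta genes moved in both directions, with a median of 0.01 over 16 members. Eng (1.12) and the receptor Tgfbr2 (0.561 and 1.79 FPKM, 1.11 ± 0.41) were called higher. Id1, a transcriptional inhibitor that BMP signals raise, was called lower. It was at 31.1 FPKM in the knockout, 26.6 in WT, 18.9 in the stabilized library and 17.1 FPKM in the stabilized knockout (-0.84 ± 0.37), lower in both libraries with stabilized beta-catenin than in the others. Other genes of the same response were below 0 without being called, Smad6 at -0.42, Id3 at -0.36 and Id2 at -0.34.

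None of the 20 components of the Norrin receptor complex and the beta-catenin machinery was called, and their median was 0.05. The receptor Fzd4 was at 1.99 in the knockout and 2.09 FPKM in the stabilized knockout (0.06 ± 0.38), Lrp5 at 2.78 and 3.65 FPKM (0.34 ± 0.32) and Tspan12 at 7.01 and 7.56 FPKM (0.10 ± 0.35). Of 20 Wnt feedback and target genes only 8 entered, 2 were called higher and the median was 0.24. Tcf7, a transcription factor of the TCF/LEF family, was at 0.591 FPKM in the knockout, 0.707 in WT, 1.54 in the stabilized library and 1.28 FPKM in the stabilized knockout (0.71 ± 0.40), and was under 1.5-fold with a pseudocount of 1 (0.52). Apcdd1, an inhibitor of Wnt signals, was at 9.27 FPKM in the knockout, 12.1 in WT, 14.5 in the stabilized library and 16.5 FPKM in the stabilized knockout (0.80 ± 0.30). Both genes were lowest in the knockout, but for both its interval overlapped with that of WT. Apcdd1 was not called with Ndp intact (0.25). Axin2, a general feedback inhibitor that cells other than endothelium also express in the retina, was at 5.30 and 5.80 FPKM (0.12 ± 0.30). The cell source of that value was not tested. Among 20 Wnt ligands, Frizzleds and secreted modulators, the receptor Fzd6 (1.09 and 2.10 FPKM, 0.71) and the secreted inhibitor Sfrp4 (0.541 and 1.45 FPKM, 0.90) were called higher. Fzd6 was under 1.5-fold with a pseudocount of 1 (0.57).

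The gene whose regulatory sequence drives the recombinase was called higher, as were 2 of its neighbours. Pdgfb, a ligand that attracts pericytes (chromosome 15, 79995874 to 80014977, GENCODE M21 on mm10), was at 1.11 FPKM in the knockout, 1.14 in WT, 2.57 in the stabilized library and 2.92 FPKM in the stabilized knockout (1.09 ± 0.40). Apobec3, a cytidine deaminase that restricts retroviruses (79891659 to 79915906), was at 0.515, 0.623, 4.01 and 9.68 FPKM in the same order (3.33 ± 0.38). Its neighbour Cbx7, a Polycomb protein (79915807 to 79971119), was at 8.76, 11.7, 19.5 and 18.8 FPKM (1.06 ± 0.29). All of them were highest in the libraries with CreER. Apobec3 shares its deposited locus with another gene. Within 1 Mb of Pdgfb lay 39 other genes that entered, and Apobec3 and Cbx7 were the 2 called, with a median of 0.08 over the 39. Within the same distance 17 genes lay around Ctnnb1 and 3 around Ndp, and none of those was called. The libraries with CreER differed in Apobec3, with intervals of 2.96 to 5.06 in the stabilized library and 7.53 to 11.8 FPKM in the stabilized knockout. The part of the transgene in these values cannot be told apart from that of stabilized beta-catenin. The part of the mixed background was not tested.

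**Figure D3:**
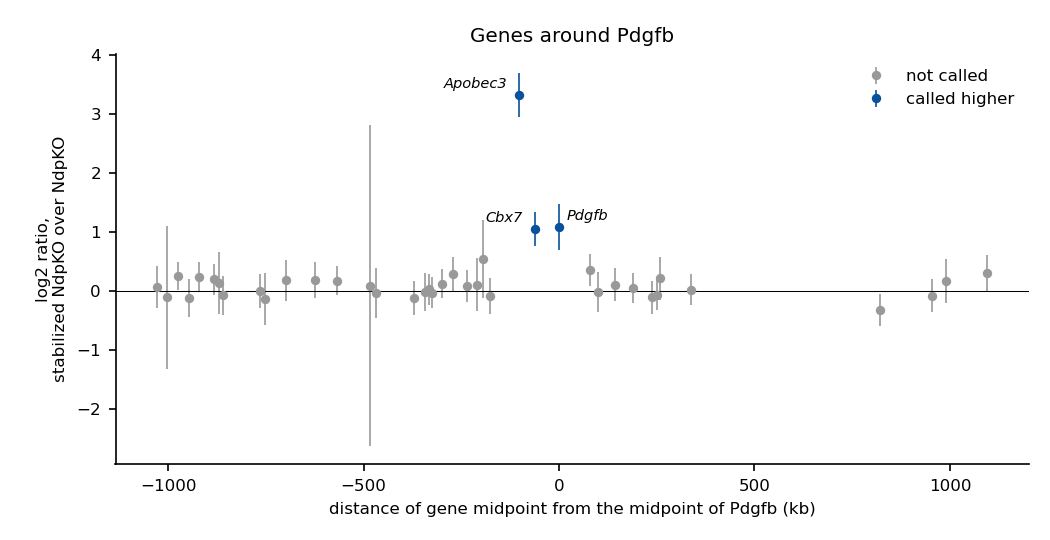
Log2 ratio of the stabilized knockout to the knockout for genes around Pdgfb, by the distance between gene midpoints in kb, with bars for the half-widths made from the deposited intervals. Pdgfb (1.09), Cbx7 (1.06) and Apobec3 (3.33) stand above the other genes, whose ratios lie near 0.

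The marker lists of photoreceptors and other neurons gave calls only among rods and cones, and all of them were lower. Over all genes entering 0.256% were called lower. Of 21 rod genes 1 was called and their median was -0.10. Gnat1, the transducin of rods, was at 401 FPKM in the knockout (330 to 471), 239 in WT (204 to 275), 215 in the stabilized library (184 to 246) and, for the stabilized knockout, 213 FPKM (182 to 243). The knockout stood alone above the other 3 libraries, and the log2 ratio was -0.91 ± 0.30. Of 14 cone genes 2 were called lower, with a median of -0.02. Opn1mw, the green opsin of cones, was at 18.3 FPKM in the knockout, 20.1 in WT, 6.56 in the stabilized library and 9.22 FPKM in the stabilized knockout (-0.95 ± 0.38), lower with stabilized beta-catenin than without it. Pde6h, the inhibitory subunit of the cone phosphodiesterase, was at 158, 151, 114 and 99.5 FPKM in the same order (-0.66 ± 0.27). The blue opsin Opn1sw was at 89.4 and 90.7 FPKM and the cone arrestin Arr3 at 25.2 and 31.0 FPKM, neither of them called.

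No gene was called among the 19 bipolar, 15 amacrine, 7 horizontal, 18 ganglion and 16 Muller glia markers, whose medians were -0.07, 0.13, -0.02, 0.15 and -0.07. Outside the lists, the neuropeptide gene Npy was called higher. It was at 57.9 in the knockout and 93.2 FPKM in the stabilized knockout (0.68 ± 0.32). Drd4 (chromosome 7, 141292006 to 141296464), the dopamine D4 receptor, which photoreceptors express, had the lowest ratio of a named gene with a single locus. Its level was 53.9 FPKM in the knockout (46.0 to 61.8), 30.0 in WT (25.0 to 35.1), 9.88 in the stabilized library (7.47 to 12.3) and, for the stabilized knockout, 18.2 FPKM (14.6 to 21.8), so none of the 4 intervals overlapped. The log2 ratio was -1.54 ± 0.32 in the knockout pair and -1.56 with Ndp intact. Rec8, a cohesin subunit of meiosis, was at 2.70 FPKM in the knockout and between 0.620 and 0.807 FPKM in the other libraries (-1.52 ± 0.40). Kcnj14, a potassium channel, was at 5.83 FPKM in the knockout, 5.33 in WT, 3.37 in the stabilized library and 1.85 FPKM in the stabilized knockout (-1.43 ± 0.38). Its stabilized knockout interval lay below all others. Rtkn2, a protein that binds small GTPases, was at 11.8 and 5.51 FPKM (-1.03 ± 0.29), against 8.26 in WT and 8.11 FPKM in the stabilized library. Dcdc2b (-0.98), the precursor of melanocortins Pomc (-0.91), the phospholipase Pla2g4b (-0.91), the kinetochore gene Spc25 (-0.89) and Dip2c (-0.86) completed the lowest named genes. Lrrc17 (-1.27) and the provisional Gm14440 (-3.28) share their deposited loci with other genes and are uncertain.

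**Figure D4:**
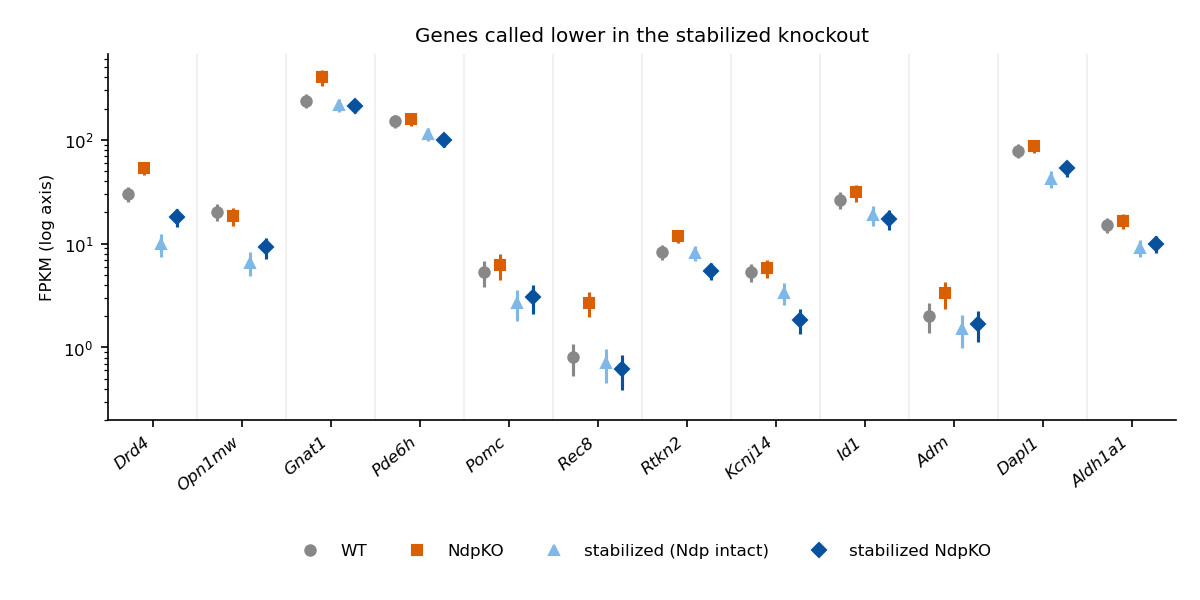
FPKM on a log axis of 12 genes called lower in the stabilized knockout than in the knockout, with 1 point per pooled library and vertical lines for the deposited intervals. Drd4, Opn1mw, Dapl1 and Aldh1a1 are low in both libraries with stabilized beta-catenin, whereas Gnat1 and Rec8 are high in the knockout library alone (401 and 2.70 FPKM).

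Astrocytes spread over the inner retina ahead of vessels, and 2 of their 9 markers entering were called higher, with a median of 0.34. Pdgfra, their growth factor receptor, was at 5.10 FPKM in the knockout, 5.06 in WT, 8.91 in the stabilized library and 10.2 FPKM in the stabilized knockout (0.93 ± 0.30). Nes, the intermediate filament nestin, was at 2.20 and 3.59 FPKM (0.60), and dropped under 1.5-fold after re-centring (0.56) and with a pseudocount of 1 (0.52). Gfap, the filament of astrocytes and stressed Muller glia, was at 6.38 and 8.80 FPKM (0.44 ± 0.35) and not called. Of 15 gliosis and stress genes, with a median of 0.31, Nes and Hmox1 were called. Hmox1, the enzyme that degrades heme, was at 4.67 FPKM in the knockout, 2.51 in WT, 4.14 in the stabilized library and 9.52 FPKM in the stabilized knockout (0.95 ± 0.39), the highest of the 4 with an interval apart from each.

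Of 32 hypoxia and glycolysis genes, Adm alone was called, and the median was -0.09. The stress gene Ddit4 (-0.44), Bhlhe40, Vegfa and Ak4 (each -0.35) came next and were not called. Among 19 proliferation genes, with a median of 0.22, the replication helicase gene Mcm6 was called higher (2.76 and 4.50 FPKM, 0.62) and the spindle checkpoint gene Bub1b lower (3.08 and 1.76 FPKM, -0.67). Both lost the call with a pseudocount of 1 (0.55 and -0.57), and Mcm6 also after re-centring (0.58). No member was called among 16 microglia markers (median 0.23), 9 interferon response genes (0.02), 8 immediate early genes (0.05), 8 pigment epithelium markers (-0.13) and 4 endothelial activation genes (0.07). Microglia markers summed to 104 FPKM in the stabilized knockout and 88.9 FPKM in the knockout, between which WT lay at 103 FPKM. The stabilized library was at 92.7 FPKM, below WT. With Ndp intact the median of these markers was -0.07, and 1 of them was called lower.

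Of the 115 genes called higher 59 were in no list. Several are among the widest ratios, with Pglyrp1, Serpina3h and Spp1 named here. Pglyrp1 binds bacterial peptidoglycan (0.234 and 2.96 FPKM in the knockout and the stabilized knockout, 2.24 ± 0.54). Serpina3h is annotated as a transcribed pseudogene (0.0278 and 1.97 FPKM, 2.23 ± 0.31). With a knockout value near 0, its ratio rests on the pseudocount. Spp1 encodes the matrix protein osteopontin (1.28 and 6.79 FPKM, 2.03 ± 0.45). For all of these genes the knockout was the lowest library, although for Pglyrp1 its interval overlapped with that of WT. Amd1, Rps27 and Klk1b22 had log2 ratios of 3.82, 3.34 and 2.92. They belong to families with near-identical copies, and their values are uncertain. Chosen after their values were seen, further unlisted genes include the phospholipase Gdpd3 at 1.06 and 5.13 FPKM (1.85), the fatty aldehyde dehydrogenase Aldh3a2 at 14.8 and 30.1 FPKM (1.00), the cholesterol exporter Abca1 at 7.42 and 12.9 FPKM (0.75) and the lipid synthesis regulator Srebf1 at 21.2 and 34.5 FPKM (0.69). Srebf1 shares its deposited locus with another gene. The semaphorin receptor Plxnd1, known from endothelium, was at 1.69 and 3.84 FPKM (0.99), and the prion-like protein gene Prnd at 0.656 and 3.57 FPKM (1.82).

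The same change of beta-catenin with Ndp intact, the stabilized library against WT, shares no library with the knockout pair and is the other measure of it in the series. It differs from the knockout pair in sex as well as in Ndp, so the part of each cannot be told apart. In that pair 115 genes were called higher (0.891%) and 74 lower (0.573%). Of the 115 genes called higher in the knockout pair 62 were called higher there, 53.9% of either list, 108 had the same sign and none was called lower. Their median log2 ratio there was 0.72, against 0.93 in the knockout pair, and 46.1% of all genes entering had a ratio above 0 there. Of the 33 genes called lower 12 were called lower there (36.4% of them and 16.2% of the 74), 29 had the same sign and none was called higher. Their median there was -0.44, against -0.81. Across all 12905 genes Pearson's r between the log2 ratios of both pairs was 0.48, as a description over genes, which are not independent.

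Genes with near equal ratios in both pairs include Slco1c1 (2.44 in the knockout pair and 2.20 with Ndp intact), Slc38a5 (1.45 and 1.48), Pecam1 (0.86 and 0.92), Lama4 (1.18 and 1.22), Abcc9 (0.90 and 0.89), Tcf7 (0.71 and 0.76) and Aldh1a1 (-0.71 in both). The ratio was larger in the knockout pair for 88 of the 115 genes called higher there, a choice that favours that pair. It was larger by more than the half-width of the difference for 30 genes and smaller by more than that for 4, Col4a1, Col4a2, Bgn and Fn1. Cldn5 differed by 2.45 ± 0.56 (3.87 and 1.43), with stabilized levels of 16.7 and 19.4 FPKM and starting levels of 0.675 and 6.91 FPKM. Its end levels overlapped and its starting levels did not. Mfsd2a differed by 1.02 ± 0.57, Slc39a8 by 1.29 ± 0.55, Spp1 by 1.36 ± 0.61 and Eltd1 by 0.82 ± 0.49, and each started lower in the knockout than in WT. The collagen IV chains went the other way: Col4a1 had 1.16 in the knockout pair and 1.70 with Ndp intact (a difference of -0.54 ± 0.35) and Col4a2 0.99 and 1.59 (-0.60 ± 0.36), and both started higher in the knockout than in WT. The other called collagen genes, Col17a1 (1.03 and 0.55), Col5a3 (1.08 and 0.99) and Col18a1 (0.87 and 0.78), did not have the smaller ratio in the knockout pair. The proteoglycan gene Bgn also had the smaller ratio in the knockout pair (0.96 and 1.61). Gnat1 (-0.91 and -0.16), Rec8 (-1.52 and -0.11) and Rtkn2 (-1.03 and -0.03) were further apart in the knockout pair, and Opn1mw was further apart with Ndp intact (-0.95 and -1.55). Opposite signs without a call in the second pair were found for 7 of the genes called higher and 4 of those called lower. They include Klk1b22 (2.92 and -0.80), Anxa1 (1.16 and -0.23), Bub1b (-0.67 and 0.29) and Rps27 (3.34 and -2.52, with wide intervals).

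**Figure D5:**
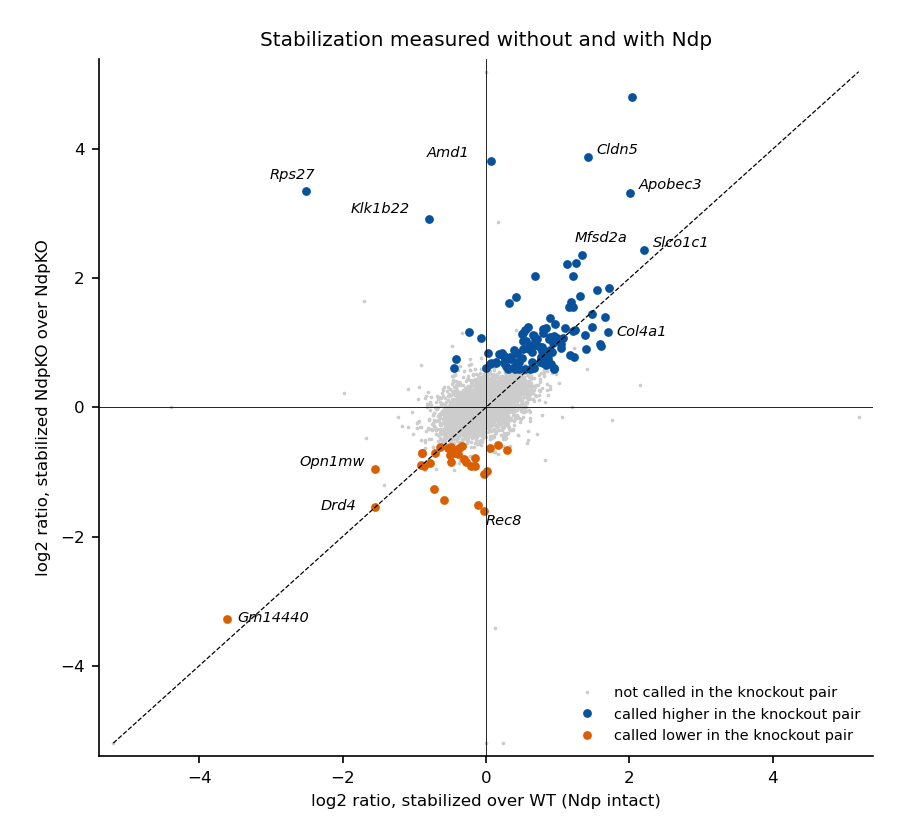
Log2 ratio of the stabilized knockout to the knockout (vertical) against that of the stabilized library to WT (horizontal), 1 point per gene, with a dashed line where both are equal and 5 genes that were not called drawn at the limit of 5.2. Most genes called in the knockout pair lie in the upper right or lower left with the same sign in both, Cldn5 lies far above the line, and Rps27 and Klk1b22 lie at the upper left.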

How the data were processed

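Whole-retina RNA was sequenced in 4 pooled libraries, 1 per genotype, prepared per the labels' protocols with the TruSeq v2 RNA kit. The authors deposited FPKM per gene with a lower and an upper bound and a status. TopHat, Cuffdiff and mm10 are named in the submitters' processing notes. Versions, read totals, gene annotation, strand and interval level were not given in the sources used here. The depth behind each value is therefore unknown. The bounds describe the estimate within a library, not variation between mice.

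Columns were matched to samples by the number in their name. Ratios were computed as log2 of FPKM plus 0.5, which understates changes of low genes, after the filters given above. Of 23278 genes 145 had another status and 4285 share their deposited locus. No p-value was computed, since no genotype has replicates. Half-widths combine the distances to both upper bounds. The 35 gene lists and the members named were chosen with earlier results of these data known. Genes named are the 12 highest and 12 lowest called without provisional symbols, every called member of vascular and signalling lists, up to 4 per direction of other lists and a set chosen whatever their values. Other genes named were chosen after their values were seen. Coordinates came from GENCODE M21 (98.3% of genes entering) and promoters from RefSeq. The calling procedure was tested on simulated data. Alternatives were pseudocounts, minimum means, fold limits, intervals, re-centring, TPM, status and short RNA genes; leaving out genes that share a locus was added after the data were seen. Tools were Python 3.11.15 with numpy 2.4.6, pandas 2.3.3 and matplotlib 3.10.9.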

Additional observations from a re-analysis of the deposited data

How the results depend on the processing

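Counts of called genes changed by more than 1.5 times under 6 settings. A minimum mean of 5 FPKM left 36 higher and 18 lower genes, with 20 called higher in both pairs, and no minimum gave 195 higher genes. Calls at 1.5-fold whatever the intervals gave 63 lower genes, 20 of them in both pairs. Requiring 2-fold gave 51 higher and 7 lower genes, with 23 and 2 in both pairs. Intervals apart, at any fold or past a fold limit lower than 1.5, gave 64 lower genes, 28 in both pairs. Under all other settings (pseudocounts of 0.1 and 1, a minimum of 0.5 FPKM, re-centring, TPM, any status, short RNA genes included, genes sharing a locus left out) the counts stayed within 1.5 times. No named gene that was called changed its sign. Of 760 values of 92 named genes 42 moved by more than the half-width, all with another pseudocount or on the TPM scale, which enlarges or shrinks ratios of low genes. Of 287 values of 32 list medians 4 did, and these are given with their lists above. No paired analysis was possible because each genotype has 1 pooled library. The missing replicates and unknown depth limit every value, and low genes have the widest intervals.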

Other observations

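Below the minimum mean of 1 FPKM lay 9518 genes, of which 80 met the same rule for a higher call in the stabilized knockout (0.841%) and 15 that for a lower call (0.158%). The genes named here were chosen after their values were seen, their levels are low, and none was counted above. Several are known from barrier endothelium. Abcb1a, the drug exporter P-glycoprotein, was at 0.0665 FPKM in the knockout, 0.287 in WT, 0.893 in the stabilized library and 1.02 FPKM in the stabilized knockout. The forkhead transcription factor Foxq1 was at 0.0662, 0.366, 1.52 and 1.22 FPKM in the same order, and its relative Foxf2, which pericytes express, at 0.184, 0.507, 1.48 and 1.61 FPKM. Sox17, a transcription factor of endothelium, was at 0.126, 0.399, 0.711 and 0.832 FPKM, and Car4, a carbonic anhydrase on capillaries, at 0.115, 0.293, 1.13 and 1.90 FPKM. In each of these the knockout was the lowest library and both libraries with stabilized beta-catenin were above WT. For Sox17, however, the intervals of both libraries with stabilized beta-catenin overlapped with that of WT. For Car4 the intervals of the knockout and WT overlapped. Gpihbp1, which anchors lipoprotein lipase on capillaries outside the brain, went the other way, at 1.58 FPKM in the knockout, 0.542 in WT, 0.485 in the stabilized library and 0.311 FPKM in the stabilized knockout.

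Pan-endothelial, mural and other vascular lists held 15 of the 80 genes, among them Vwf, the blood clotting factor of endothelium, at 0.107 in the knockout and 0.806 FPKM in the stabilized knockout, the angiopoietin receptor Tek at 0.399 and 1.34 FPKM, and Cspg4, a surface proteoglycan of pericytes, at 0.0550 and 0.361 FPKM. Lef1, of the TCF/LEF family, was at 0.294 and 0.753 FPKM. The proliferation list held 6: Mki67 (0.338 and 0.842 FPKM), Top2a, Cdk1, Aurkb, Ccnb1 and Rrm2. Of the 80 genes 29 met the rule with Ndp intact as well, and of the 15 lower ones 3 did.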
